A study of Mus musculus with 12 samples.

Results

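Nocturnin, listed as Ccrn4l, and 9 genes through which the circadian clock acts on the rest of the liver (Dbp, Tef, Hlf, Nfil3, Usp2, Ciart, Wee1, Bhlhe40 and Bhlhe41) are described here in the livers of germ-free male C57BL/6J mice. They are 10 of the 38087 genes with exon counts. Of these, 9 were found by symbol, and Ciart by its Ensembl identifier ENSMUSG00000038550, since its row carries the older name Gm129. The set was selected on results of this comparison, since the fold changes between ghrelin and PBS livers were known when the genes were chosen. The fold changes of these genes are therefore a description and support nothing by themselves. Mice of the ghrelin group (6 libraries) received 10 µg of rat ghrelin per mouse by daily subcutaneous injection for 5 days, and those of the PBS group (6 libraries) received the buffer alone on the same schedule. Both groups were 13 to 16 weeks old, had no gut microbes, and carry the label ZT2, that is zeitgeber time 2, or 2 hours after lights on. Injections were also given at ZT2, and the sources used here do not give the interval between the last injection and the liver sample. No label says that each library comes from a separate animal, so p-values measure the spread between these samples, which could in part be technical, and a liver in the text stands for 1 library.

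In the clock of mouse liver the proteins CLOCK (or NPAS2) and ARNTL, also called BMAL1, bind E-boxes and switch on the Per, Cry and Nr1d genes, whose products then repress the cycle. Output genes carry this rhythm onward: DBP, TEF and HLF are related activators that bind D-boxes in genes of drug and haem metabolism, and NFIL3 represses through the same sites. Nocturnin is a rhythmic enzyme related to the CCR4 deadenylases. It removes a phosphate from NADP and NADPH, and mice without it resist fatty liver on a high-fat diet.

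Nocturnin was the 1 member called between the treatments. It was lower in ghrelin livers than in PBS livers with no overlap between the groups. Dbp, Tef, Usp2, Ciart, Wee1 and Bhlhe41 instead varied together from liver to liver inside each group. By Pearson's r they went in the direction of Nr1d2 and Per3 and opposite to Arntl, Npas2 and Cry1. By rank, no pair of Usp2 or Ciart with a core clock gene passed the threshold. Nocturnin had no correlation past the threshold with any other member or with any of 12 core clock genes.

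The members lie on several chromosomes (GRCm38, GENCODE M21). Nocturnin spans chr3:51224447-51251644 on the plus strand, and Ciart chr3:95878503-95882251 on the minus strand. Dbp spans chr7:45705088-45710203 and Tef chr15:81802421-81826863, both on the plus strand. Usp2 lies at chr9:44067021-44095627 and Wee1 at chr7:110122046-110143286, both on the plus strand. Hlf lies at chr11:90336536-90390895 and Nfil3 at chr13:52967209-52981073, both on the minus strand. The related genes Bhlhe40 and Bhlhe41 share a chromosome, at chr6:108660629-108666925 on the plus strand and chr6:145858243-145865558 on the minus strand. The RefSeq table (GRCm38.p6) held 9 promoter windows for 8 members, and none for Wee1 or Bhlhe40. The 250 bases before each RefSeq transcription start were searched on both strands. The motifs were the E-box CACGTG, the related E′-box CACGTT, the D-box TTANGTAA, the ROR element and the cyclic AMP element TGACGTCA. Some windows overlap transcribed sequence in GENCODE. Exons of Tef and Gm17597 cover all 250 bases of the first Tef window. Exons of Dbp cover 159 bases of its window, and those of Bhlhe41 cover 138. The Usp2 window and the second Tef window lie inside the spans of their genes. The nocturnin and Ciart windows are shown because nocturnin was the member called between the treatments and Ciart held the most E-boxes. The second Tef window and the Bhlhe41 and Hlf sites show where the other matches lie. Capitals mark a motif, and each sequence runs 5′ to 3′ on the strand of its gene.

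Nocturnin (Ccrn4l), chr3:51224197-51224446, plus strand, no motif found: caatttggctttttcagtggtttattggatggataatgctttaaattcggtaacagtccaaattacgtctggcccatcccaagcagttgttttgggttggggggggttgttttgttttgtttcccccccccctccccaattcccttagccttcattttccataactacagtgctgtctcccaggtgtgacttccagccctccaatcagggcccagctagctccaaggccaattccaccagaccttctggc
Ciart, chr3:95882252-95882478, minus strand, E-boxes: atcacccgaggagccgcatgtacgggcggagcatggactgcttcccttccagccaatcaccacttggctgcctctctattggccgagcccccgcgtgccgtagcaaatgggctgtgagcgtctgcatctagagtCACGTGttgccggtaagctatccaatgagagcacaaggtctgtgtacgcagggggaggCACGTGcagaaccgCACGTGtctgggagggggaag
Tef, chr15:81811164-81811413, plus strand, E-box: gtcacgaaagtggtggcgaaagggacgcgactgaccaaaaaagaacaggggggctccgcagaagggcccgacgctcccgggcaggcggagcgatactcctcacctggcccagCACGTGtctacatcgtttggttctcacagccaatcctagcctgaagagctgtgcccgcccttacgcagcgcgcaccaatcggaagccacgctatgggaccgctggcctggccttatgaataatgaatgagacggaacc
Bhlhe41, chr6:145865560-145865581, minus strand, E-box: acgttccgCACGTGagctgggt
Hlf, chr11:90390918-90390934, minus strand, cyclic AMP element: gcgggcccTGACGTCAc

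An E-box was present in 3 members with a window (Ciart, Tef and Bhlhe41), and in 6.02% of the 32851 promoters of the same length. Ciart held 3 of them, beginning 116, 58 and 44 bases before its RefSeq start. The printed Ciart stretch holds 227 of the 250 bases. It leaves out the 23 next to that start, which lie in a GENCODE exon of Ciart. Tef held 1 in each of its windows, the first of which lies in exons, and Bhlhe41 held 1. The cyclic AMP element occurred in Hlf alone among these windows, and in 1.55% of all promoters. The E′-box, the D-box and the ROR element were found in none of the 9 windows, against 3.85%, 2.06% and 0.177% of all promoters. These matches describe letters in short windows and say nothing about binding.

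Across genes, levels were set side by side as CPM (counts scaled to library size) per kilobase of merged exons. Bhlhe40 was highest at 22.2 ± 1.59 in ghrelin livers and 20.9 ± 4.82 in PBS livers (SD, n = 6 each). Tef, Nfil3 and Dbp formed the next tier. Their ghrelin means were 14.5, 14.8 and 12.3 CPM per kilobase and their PBS means 15.1, 12.6 and 11.3. By mean, Dbp was the lowest of these 3 in both groups. Differences between the 3 genes inside single livers were not tested. Hlf followed with 3.55 ± 0.304 in ghrelin livers and 3.93 ± 0.725 in PBS livers. Ciart averaged 1.42 ± 1.14 in ghrelin livers and 3.51 ± 3.02 in PBS livers, where the Hlf mean lay within the SD of Ciart. Usp2 averaged 1.1 ± 0.664 in ghrelin livers and 2.57 ± 1.86 in PBS livers. Nocturnin overlapped with both: it averaged 0.882 ± 0.199 CPM per kilobase in ghrelin livers and 2.01 ± 0.591 in PBS livers. Bhlhe41 and Wee1 had the lowest means, with Bhlhe41 above Wee1 in ghrelin livers and below it in PBS livers. Their difference inside single livers was not tested. Bhlhe41 averaged 0.472 ± 0.208 in ghrelin livers and 0.377 ± 0.172 in PBS livers, and Wee1 0.335 ± 0.157 in ghrelin livers and 0.444 ± 0.14 in PBS livers.

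**Figure D1:**
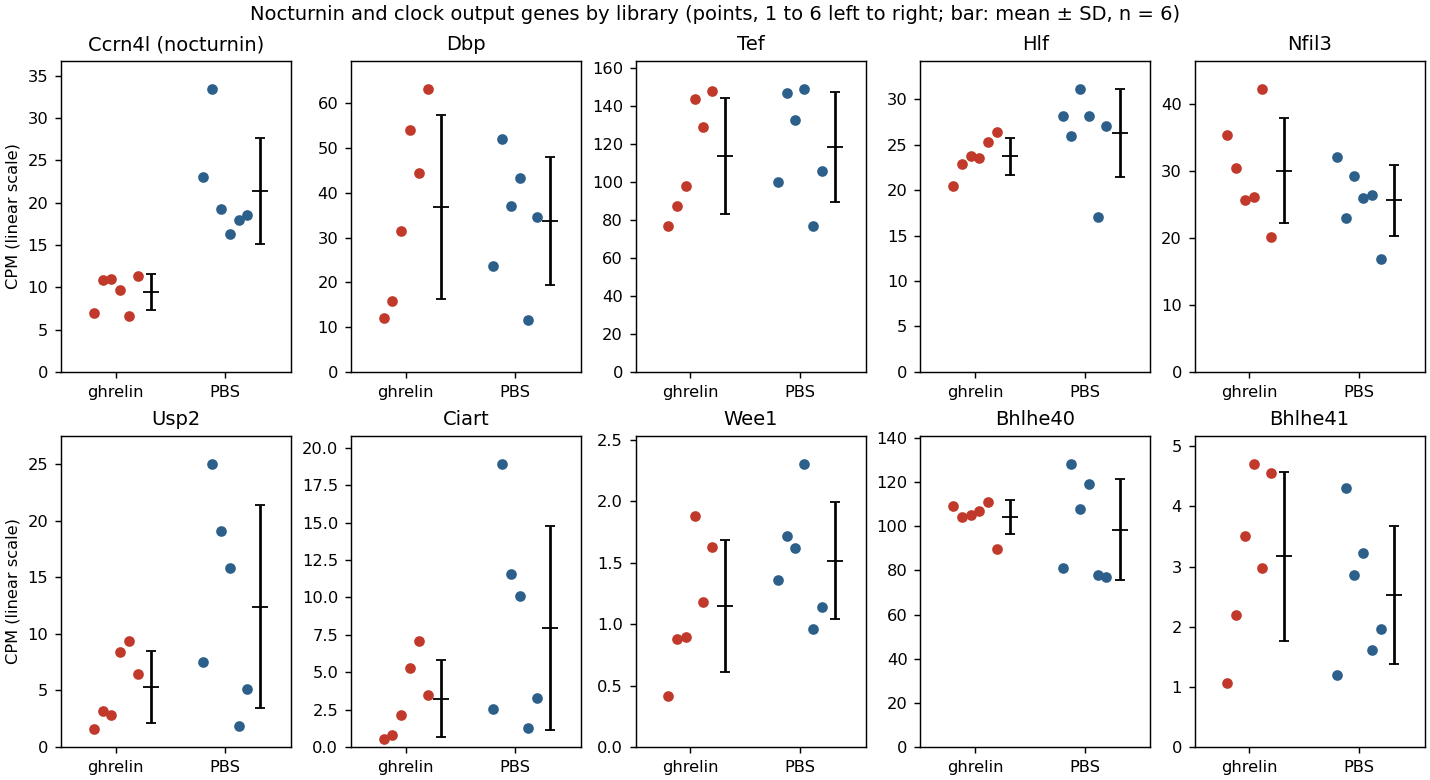
CPM of each member in the 6 ghrelin and the 6 PBS livers on linear axes that start at 0, with 1 point per library in order of replicate number and bars for mean ± SD (n = 6). Nocturnin is the 1 panel in which the groups do not overlap, while Usp2 and Ciart span a wide range in both groups.

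Nocturnin had 6.63 CPM in its lowest, 10.3 at the median and 11.3 in its highest ghrelin liver, against 16.3, 18.9 and 33.4 CPM in PBS livers. Every ghrelin liver lay below every PBS liver, and PBS replicate 2 stood well above the others. The means were 9.4 ± 2.12 CPM in ghrelin livers and 21.4 ± 6.29 CPM in PBS livers (SD, n = 6 each), from 107 to 738 counts per library. Nocturnin fell by 1.18 on the log2 scale (SE 0.18, adjusted p = 0.0244, edgeR's quasi-likelihood test with Benjamini-Hochberg adjustment over 14170 genes), rank 5 by p. All 10 members passed the filter on low counts, and 1 of 10 was called, against 0.106% of all genes in either direction. It was lower, as were 0.0635% of all genes, and 0 members were called higher, against 0.0423%. DESeq2 also called 1 of 10 (nocturnin, adjusted p = 5.98e-07), against 1.83% of the genes to which it gave an adjusted p. Likewise 1 of 10 had groups that did not overlap, against 0.826% of all genes in either direction and 0.459% lower. Nothing is read from these shares, because this contrast was known when the genes were chosen. The call was lost without ghrelin replicate 1 (log2 fold change -1.11, adjusted p = 0.074), without ghrelin replicate 3 (-1.23, adjusted p = 0.0566) and in the robust form of the test (adjusted p = 0.0515). The other 18 of 21 alternatives kept it.

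None of the D-box activators was called. The levels of Dbp and Tef overlapped widely between the treatments, and those of Hlf mainly through PBS replicate 5. Dbp had 12.1, 37.9 and 63.1 CPM in the lowest, median and highest ghrelin liver, against 11.5, 35.8 and 51.9 CPM in PBS livers. The 2 ranges nearly coincide. Its log2 fold change was 0.13 (SE 0.38, adjusted p = 0.919, edgeR), and leaving out single livers turned its sign. Tef had 76.8, 113 and 148 CPM in the lowest, median and highest ghrelin liver, against 76.8, 120 and 149 CPM in PBS livers, which is again the same range. It averaged 114 ± 30.5 CPM in ghrelin livers and 119 ± 28.9 CPM in PBS livers, with a log2 fold change of -0.06 (SE 0.18), and its sign also turned when single livers were left out. Hlf kept to a narrow range of 20.5 to 26.4 CPM in ghrelin livers, against 17.0 to 31.1 CPM in PBS livers. Only PBS replicate 5 lay below the ghrelin range, and the other PBS livers had 26.0 to 31.1 CPM. Without PBS replicate 5 the log2 fold change of Hlf was -0.239 (SE 0.073, adjusted p = 0.159, edgeR). With all livers it averaged 23.7 ± 2.03 CPM in ghrelin livers and 26.3 ± 4.84 CPM in PBS livers (log2 fold change -0.14, SE 0.11). Nfil3, the repressor at the same sites, had 20.2 to 42.2 CPM in ghrelin livers and 16.9 to 32.1 CPM in PBS livers. It was highest in ghrelin replicate 5 and lowest in PBS replicate 6, and averaged 30.0 ± 7.85 CPM in ghrelin livers and 25.6 ± 5.25 CPM in PBS livers (log2 fold change 0.23, SE 0.17, and 0.11 without ghrelin replicate 5). None of these 4 passed the test.

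Usp2 and Ciart had fitted fold changes close in size to that of nocturnin but far wider errors. Usp2 encodes a deubiquitinase that acts on clock proteins. It had 1.61, 4.84 and 9.35 CPM in the lowest, median and highest ghrelin liver, against 1.88, 11.7 and 25.0 CPM in PBS livers. Its lowest values stood in ghrelin replicate 1 and PBS replicate 5, so the groups overlapped almost throughout the ghrelin range. The log2 fold change was -1.21 (SE 0.52, adjusted p = 0.331, edgeR). Ciart encodes CHRONO, a repressor of the CLOCK and ARNTL pair. It had 0.536, 2.79 and 7.06 CPM in ghrelin livers, against 1.27, 6.68 and 18.9 CPM in PBS livers, with its lowest values again in ghrelin replicate 1 and PBS replicate 5. Its log2 fold change was -1.30 (SE 0.62, adjusted p = 0.38, edgeR). Without PBS replicate 2, the liver highest in both genes, the log2 fold changes were -0.82 for Ciart and -0.88 for Usp2, both smaller in size than the -1.01 of nocturnin in that fit. Over the fits that left out 1 library, Ciart ran from -1.65 to -0.82 and Usp2 from -1.44 to -0.88. The highest liver had 35.3 times the Ciart level of the lowest, and 15.6 times for Usp2. At an unadjusted p under 0.05, 2 of 10 members were lower (nocturnin and Usp2), against 6.94% of all genes.

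The remaining members have roles in cell division and in repression at E-boxes. Wee1, the kinase that holds back entry into mitosis, averaged 1.15 ± 0.538 CPM in ghrelin livers and 1.52 ± 0.477 CPM in PBS livers, from only 7 to 42 counts per library. It was lowest in ghrelin replicate 1 and highest in PBS replicate 4. Its log2 fold change was -0.37 (SE 0.3). Bhlhe40 and Bhlhe41 encode the repressors DEC1 and DEC2. Bhlhe40 lay between 89.7 and 111 CPM in ghrelin livers, inside the wider range of 76.9 to 128 CPM in PBS livers. It averaged 104 ± 7.47 CPM in ghrelin livers and 98.4 ± 22.7 CPM in PBS livers (log2 fold change 0.08, SE 0.12). Bhlhe41 averaged 3.17 ± 1.4 CPM in ghrelin livers and 2.53 ± 1.15 CPM in PBS livers (log2 fold change 0.34, SE 0.33), from 18 to 100 counts per library. None of the 3 passed the test. Over the 10 members the median log2 fold change was -0.10, with 4 positive and 6 negative values, beside a median of 0 over all genes. Exons of Sphk2 on the other strand cover 18.0% of the merged exons of Dbp, and exons of Gm43909 cover 19.0% of those of Bhlhe41. Without a stated strand setting, reads of these partners cannot be told apart.

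Variation between livers of the same treatment was large for several of these genes. Within groups the SD of log2 CPM (prior count 2) was 1.43 for Ciart, larger than in 99.9% of genes of like level. It was 1.19 for Usp2 and 0.88 for Dbp, larger than in 99.8% and 99.5%. Tef had an SD of 0.39 and nocturnin one of 0.36, larger than in 96.5% and 95.4% of genes of like level. Hlf had the smallest SD among the members, at 0.23.

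This variation was shared. Pearson correlations of log2 CPM were computed over the 12 livers after each group's mean was removed, for 45 pairs of members, with permutation within groups and Benjamini-Hochberg adjustment over the pairs. Past an adjusted p of 0.05 stood 20 of 45 pairs, all positive, and 15 by Spearman's rho. An r of 0.8 or more in size was reached by 13 of 45 member pairs (28.9%). Over 11639 genes with a mean of at least 1 CPM, the share that reached it with a given member was 0.163% (nocturnin) to 1.82% (Tef). Dbp and Tef gave r = 0.96 (two-sided permutation p = 1e-05, the smallest that 100000 permutations can give, adjusted p = 0.00045) and rho = 0.98 (p = 2e-05, adjusted p = 0.0009). The r was 0.97 in ghrelin livers and 0.95 in PBS livers, and 0.92 without the 2 livers farthest from the median of Dbp, PBS replicate 5 and ghrelin replicate 1. Usp2 and Ciart gave r = 0.94 (permutation p = 9e-05, adjusted p = 0.00135) and rho = 0.92 (p = 0.00023, adjusted p = 0.00375), and r = 0.92 without the same 2 livers. Both pairs moved together inside each treatment.

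**Figure D2:**
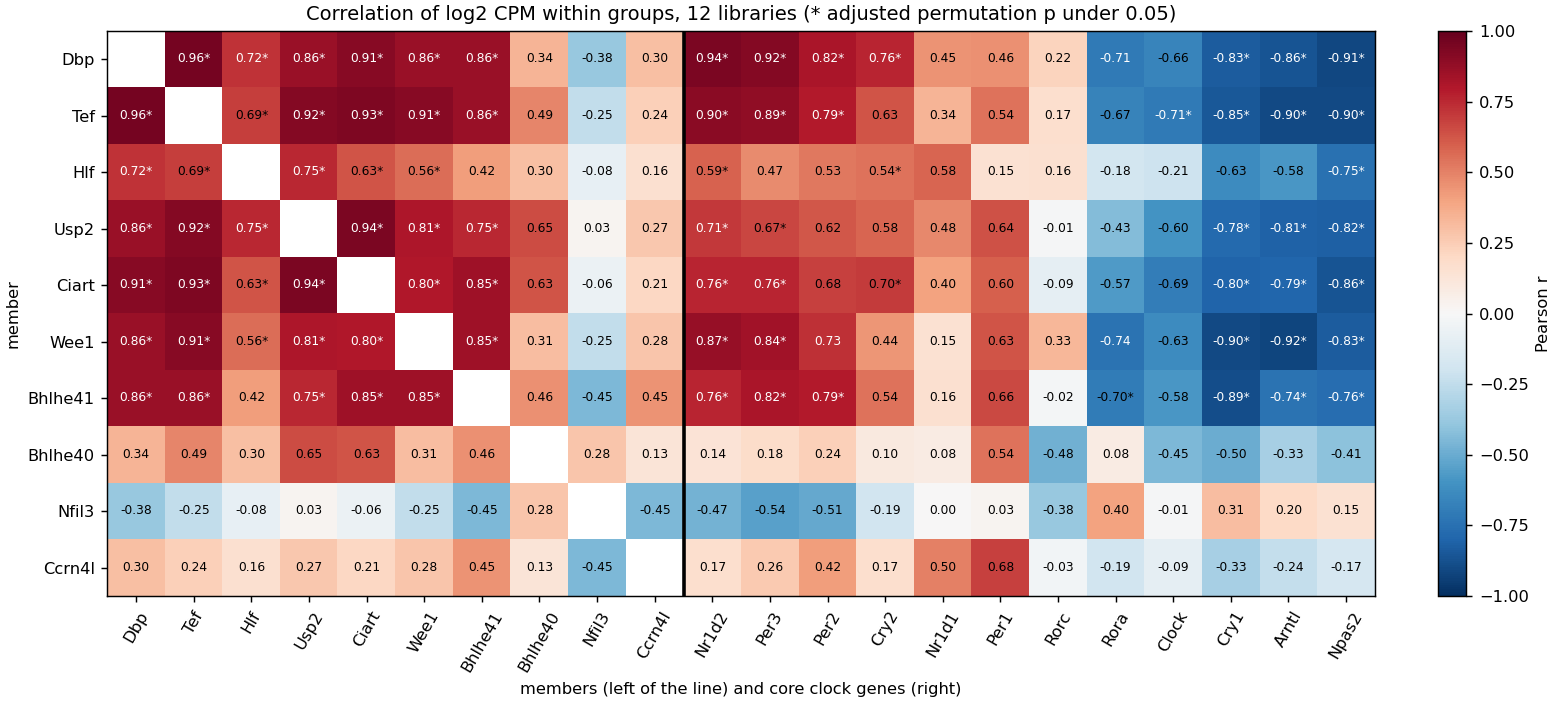
Pearson r of log2 CPM over 12 livers after removal of the group means, for each member (rows) with the other members and with 12 core clock genes (columns), where an asterisk marks an adjusted permutation p under 0.05. Dbp, Tef, Usp2, Ciart, Wee1 and Bhlhe41 form a block of positive values, and the rows of Bhlhe40, Nfil3 and Ccrn4l hold no asterisk.

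All 15 pairs among Dbp, Tef, Usp2, Ciart, Wee1 and Bhlhe41 passed the threshold, with r between 0.75 and 0.96. The other 5 pairs that passed joined Hlf to Dbp, Tef, Usp2, Ciart and Wee1. These rest on the 2 extreme livers: Dbp and Hlf gave r = 0.72 (permutation p = 0.00842, adjusted p = 0.0227) but rho = 0.51 (p = 0.0929, adjusted p = 0.199), and r = 0.31 without PBS replicate 5 and ghrelin replicate 1. Without ghrelin replicate 1 alone, 13 member pairs passed. Nocturnin passed in 0 of 9 pairs. Its r was between -0.45 with Nfil3 and 0.45 with Bhlhe41, and with Dbp it was 0.30 (permutation p = 0.342, adjusted p = 0.482; rho = 0.31, p = 0.361, adjusted p = 0.492). Nfil3 and Bhlhe40 also passed in 0 of 9 pairs. The coefficient of Bhlhe40 with Usp2 was 0.65 over all livers (permutation p = 0.0525, adjusted p = 0.107; rho = 0.73, p = 0.0293, adjusted p = 0.0776), made up of -0.16 in ghrelin livers and 0.88 in PBS livers, a difference that was not tested. That of Nfil3 with nocturnin was -0.86 in ghrelin livers and -0.01 in PBS livers, also untested. Whether these coefficients differ from those of the other members was not tested.

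Against 12 core clock genes, 40 of 120 pairs passed (19 positive and 21 negative), and 19 by Spearman's rho. No pair of Usp2, Ciart or Hlf passed by rho, and Bhlhe41 passed by rho with Per2, Per3 and Cry1 alone. Usp2 with Nr1d2 gave r = 0.71 (permutation p = 0.00851, adjusted p = 0.0309) but rho = 0.55 (p = 0.0614, adjusted p = 0.135). That r was 0.48 without PBS replicate 5 and ghrelin replicate 1. Called positive pairs involved Nr1d2 with 7 members, Per3 with 6, and Per2 and Cry2 with 3 each. Called negative pairs involved Npas2 with 7 members, Arntl and Cry1 with 6 each, and Clock and Rora with 1 each. Dbp gave r = 0.94 with Nr1d2, the repressor REV-ERBβ (permutation p = 0.0001, adjusted p = 0.0042; rho = 0.90, p = 0.00069, adjusted p = 0.0142). With Arntl it gave r = -0.86 (permutation p = 0.00097, adjusted p = 0.00831; rho = -0.83, p = 0.00514, adjusted p = 0.0343). Without PBS replicate 5 and ghrelin replicate 1 these became 0.90 and -0.71. Wee1, with few counts, still gave r = -0.92 with Arntl (permutation p = 0.00011, adjusted p = 0.0042; rho = -0.89, p = 0.00074, adjusted p = 0.0142), and -0.89 without ghrelin replicates 1 and 4. Without ghrelin replicate 1 alone, 23 of the pairs with core clock genes passed.

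Nocturnin passed in 0 of 12 pairs with core clock genes. Its highest coefficient was with Per1, a period gene that also answers to hormones, at r = 0.68 (permutation p = 0.0363, adjusted p = 0.0797; rho = 0.64, p = 0.037, adjusted p = 0.117). It was 0.55 in ghrelin livers and 0.77 in PBS livers, and 0.53 without PBS replicate 2 and ghrelin replicate 5. Per1 itself had 14.0 ± 1.86 CPM in ghrelin livers and 20.8 ± 4.05 CPM in PBS livers (log2 fold change -0.57, SE 0.12, adjusted p = 0.0985, edgeR; 0.00402 by DESeq2). Among the same 11639 genes, the within-group patterns most like that of nocturnin were those of Bcl9 (r = 0.89), Pigc (0.88), Eif2b1 (0.86), Asb13 (0.83), snoU109 (0.83) and Rab6b (0.82), and the most opposite were those of Zfp362 (-0.87), Mrps30 (-0.85) and Snord42b (-0.84). For Dbp they were Chaf1a (0.95), Camta1 (0.95), Nr1d2 (0.94), Vamp4 (0.92), Per3 (0.92) and Kdelc2 (0.92), and the most opposite were Chka (-0.97), Setdb2 (-0.92) and Tex2 (-0.91). These genes are the extremes of a ranking of all 11639 and carry no test. An r of 0.8 or more in size was reached by 19 genes for nocturnin (0.163%), the lowest share among the members, and by 110 for Dbp (0.945%). Whether either share exceeds that of unrelated genes was not tested.

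Of 16 core clock genes, 0 were called between the treatments by edgeR, with 8 positive and 8 negative fold changes and a median of 0. Nr1d1, which encodes the repressor REV-ERBα, averaged 48.3 ± 2.83 CPM in ghrelin livers and 37.6 ± 6.41 CPM in PBS livers (log2 fold change 0.36, SE 0.10, adjusted p = 0.162, edgeR; 0.0378 by DESeq2). Nr1d1 and Per1 were the 2 core clock genes that DESeq2 called, in opposite directions. Neither had a correlation past the threshold with any member.

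A single measure of clock state per liver was taken from the first principal component of the 12 core clock genes after group means were removed. It held 81.3% of their within-group variance, with Npas2 and Arntl at its negative end and Per3 at its positive end. Npas2 had the largest loading in size (-0.694) and rests on only 4 to 41 counts per library. For the scores, the loadings were applied to log2 CPM centred over all 12 livers, which keeps any difference between the groups. Ghrelin livers 1 to 6 scored -2.30, -1.88, 0.04, 1.18, 0.39 and 1.49, and PBS livers 1 to 6 scored -0.08, 0.99, 0.63, 1.61, -1.79 and -0.28. Ghrelin replicates 1 and 2 and PBS replicate 5 stood apart at the low end. These ghrelin libraries were also the shallowest of the 12, at 16553401 and 15775059 counts, while PBS replicate 5 was the deepest at 22302533. The part of depth in this was not tested. The group means were -0.18 ± 1.58 in ghrelin livers and 0.18 ± 1.19 in PBS livers (SD, n = 6 each), a difference of -0.36 (exact two-sided permutation p = 0.669, 924 assignments).

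**Figure D3:**
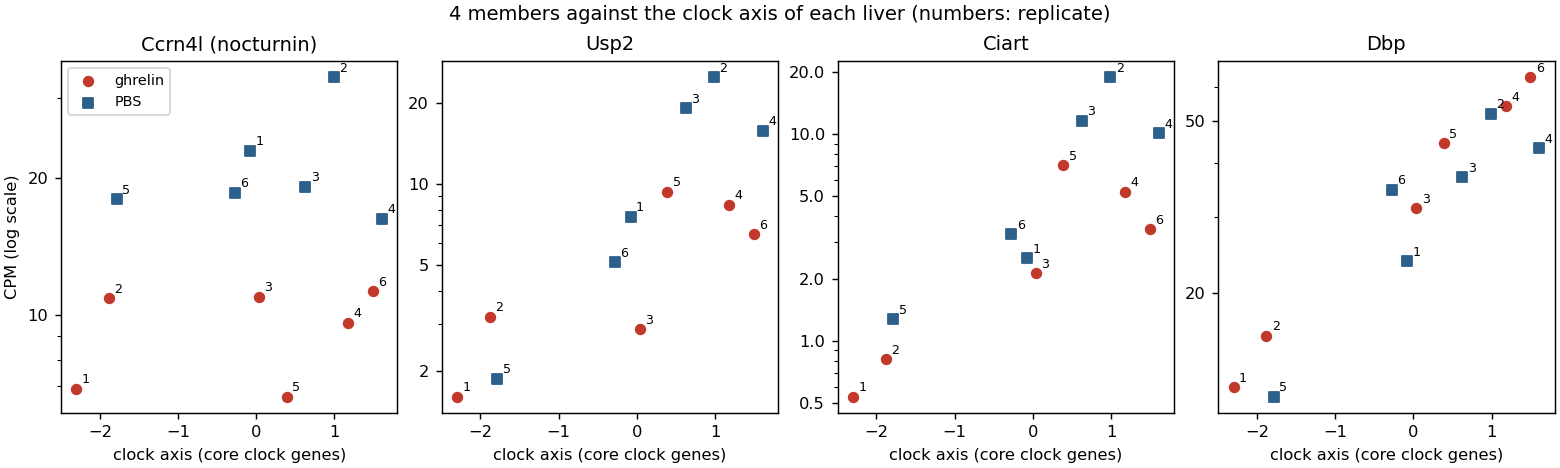
CPM on a log scale of nocturnin, Usp2, Ciart and Dbp in each liver against its score on the clock axis, with circles for ghrelin and squares for PBS and the replicate number beside each point. Dbp and Ciart are lowest in the 3 livers with the lowest scores. For nocturnin the groups do not overlap, so they stay apart against any horizontal axis, and nothing about the clock is read from that.

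With the clock axis as a covariate, an alternative chosen after seeing the data, the log2 difference of nocturnin was -1.16 (SE 0.18, adjusted p = 0.0205, edgeR). The share of all genes called in this fit was 0.169%, and 0.106% lower. The SE of Dbp was 0.12 in this fit, against 0.38 without the axis, and its log2 fold change was 0.23 (adjusted p = 0.461). Usp2 gave -0.92 (SE 0.33, adjusted p = 0.274) and Ciart -1.03 (SE 0.39, adjusted p = 0.283). Nocturnin was the 1 member called in this fit as well. This is no separate support, since the fit uses the contrast that was known when the genes were chosen. Nocturnin had no called correlation with the axis genes, but its correlation with the axis itself was not computed. Nothing is read from the small change in its estimate. Dbp, Usp2 and Ciart had called correlations with axis genes, so their SEs were likely to shrink. The SEs of Nfil3 (0.17) and Bhlhe40 (0.12) were, like that of nocturnin, the same in both fits to the digits given.

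**Figure D4:**
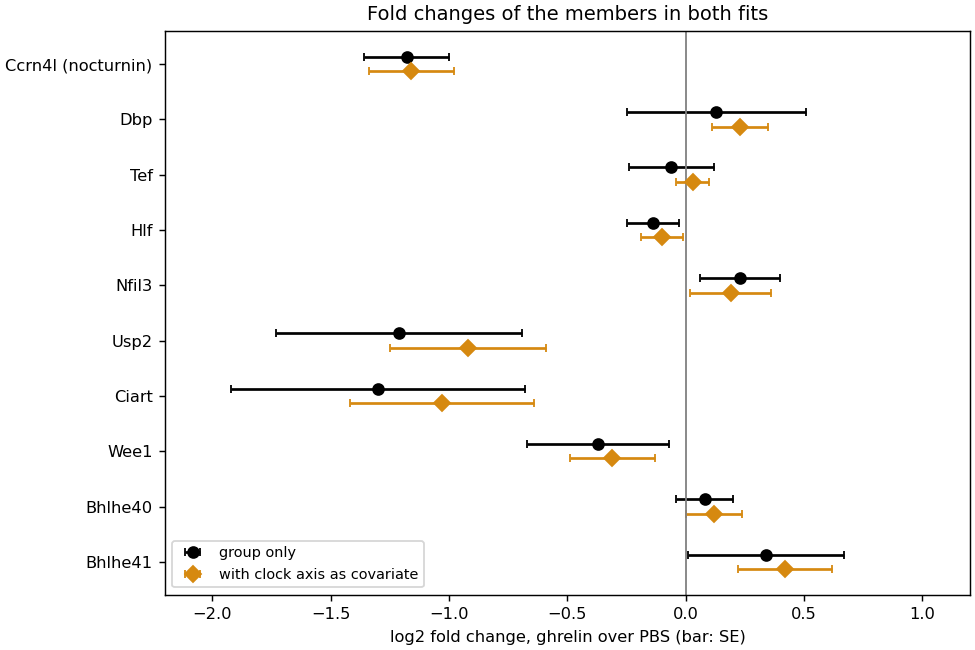
Log2 fold change of each member, ghrelin over PBS, with bars for SE, from the fit on group alone (circles) and from the fit with the clock axis as covariate (diamonds). The bars of Dbp, Tef, Usp2, Ciart, Wee1 and Bhlhe41 shorten clearly with the covariate and that of Hlf slightly. Those of nocturnin, Nfil3 and Bhlhe40 nearly keep their length.

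Genes downstream of the members were read from fixed lists. These lists and those below were chosen with earlier results of these data known, so nothing is read from their shares. Of 6 genes that the D-box activators are known to drive in liver, 0 were called and all 6 had negative fold changes (median -0.35), of which 3 had an unadjusted p under 0.05, against 6.94% of all genes. Alas1, the first enzyme of haem synthesis, averaged 160 ± 69.1 CPM in ghrelin livers and 277 ± 151 CPM in PBS livers (log2 fold change -0.79, SE 0.35, adjusted p = 0.346, edgeR). Cyp2b10, a drug-metabolising P450, averaged 0.549 ± 0.55 CPM in ghrelin livers and 2.51 ± 2.18 CPM in PBS livers (log2 fold change -2.16, SE 0.66, adjusted p = 0.204). Cyp2a5, another P450, averaged 477 ± 150 CPM in ghrelin livers and 642 ± 129 CPM in PBS livers (log2 fold change -0.43, SE 0.19, adjusted p = 0.342). The ranges of the groups overlapped for all 6.

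Nocturnin's own fields showed no call. Among 19 genes of deadenylation 0 were called, 6 were positive and 13 negative, with a median of -0.06. Cnot6, a catalytic subunit of the CCR4-NOT complex, was the 1 gene of 19 without overlap, against 0.826% of all genes in either direction and 0.459% lower. It averaged 29.0 ± 0.712 CPM in ghrelin livers and 35.0 ± 3.08 CPM in PBS livers (log2 fold change -0.27, SE 0.06, adjusted p = 0.115, edgeR; 0.0122 by DESeq2). Among 13 genes of NADP metabolism 0 were called and 11 were negative (median -0.07). Nampt, which makes a precursor of NAD, gave -0.26 (log2, SE 0.11, adjusted p = 0.32). Of 12 genes of mitotic entry, the field of Wee1, 6 passed the filter and 0 were called, with 1 positive and 5 negative (median -0.14). Cdc25b, a phosphatase that opposes WEE1, gave 0.72 (log2, SE 0.3, adjusted p = 0.322).

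Lists for inputs that can reach clock outputs without the core clock were also counted. Of 10 temperature-responsive genes 0 were called, with 3 positive and 7 negative (median -0.08). Of 8 glucocorticoid-responsive genes 0 were called by edgeR, and all 8 were negative with a median of -0.59. An unadjusted p under 0.05 was found for 5 of them, against 6.94% of all genes. Nothing is read from this share, because the list was chosen with earlier results of these data known. Tat, a tyrosine-degrading enzyme, averaged 1680 ± 369 CPM in ghrelin livers and 2600 ± 464 CPM in PBS livers (log2 fold change -0.63, SE 0.14, adjusted p = 0.115, edgeR; 0.00448 by DESeq2). Dusp1, a phosphatase of MAP kinases, averaged 18.8 ± 7.51 CPM in ghrelin livers and 37.6 ± 14.7 CPM in PBS livers (log2 fold change -1.01, SE 0.28, adjusted p = 0.172). With the clock axis as covariate Dusp1 gave -1.12 (SE 0.17, adjusted p = 0.0205). Per1 stands on this list and among the core clock genes. The part of these genes' inputs in the nocturnin difference was not tested.

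Libraries held 15775059 to 22302533 counts. Hepatocyte markers summed to 70300 to 85800 CPM in ghrelin livers and 74200 to 107000 CPM in PBS livers, as fits the labelled tissue. Of 5 neutrophil markers, 3 could be tested, 0 were positive and 0 called, and their sum was 0.816 to 4.4 CPM in ghrelin livers and 3.76 to 9.33 CPM in PBS livers. No marker list held a called gene, and the pancreatic markers Prss2 and Pnlip were at 0. The part of neutrophils in the nocturnin difference was not tested, and in bulk tissue fewer cells of a type and less RNA per cell cannot be told apart.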

How the data were processed

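Total RNA of 12 livers was sequenced after depletion of ribosomal RNA with a stranded kit, per the labels' protocols. The deposited values are raw counts over exons, which the authors did not normalise. Alignment used STAR 2.4.0i and mm10, per the submitters' processing notes. The counting tool, annotation, strand rule and handling of multi-mapping reads: not given in the sources used here. Groups and numbers came from the titles. Totals were 15775059 to 22302533 counts, and any counting error comes on top of PCR copies, which are not independent molecules. Libraries of a group differed by 11.7 to 48.6 times counting error by chi-square per degree of freedom, and none was a repeat of another.

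Genes were filtered with filterByExpr (minimum count 10, minimum total 15), leaving 14170, scaled by TMM and tested two-sided with edgeR 4.0.16's quasi-likelihood F test in R 4.3.3, with calls below an adjusted p of 0.05 (Benjamini-Hochberg). The common biological coefficient of variation was 0.145. Both this and the correlation step were tested on simulated data. Correlations (Python 3.11.15, numpy 2.4.6) used log2 CPM with a prior count of 2, centred within groups, with 100000 permutations within groups. Per-kilobase levels used merged exon lengths of GENCODE M21, and promoters came from RefSeq (GRCm38.p6). DESeq2 1.42.0, limma 3.58.1, other scalings and filters, leaving out each library, and a replicate block were alternatives.

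The members and lists were chosen with earlier results of these data known. Named genes are the members, up to 4 genes of lowest p in each list, the 12 core clock genes, and those most like nocturnin and Dbp within groups. Of all the listed genes, 6 were matched by Ensembl identifier. Pairing of libraries by number was checked and not used.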

Additional observations from a re-analysis of the deposited data

Results flagged for a closer look

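In 96 sets of 6 livers (47 genes and the clock axis in each treatment), the gap of the extreme liver to its neighbour was divided by the range, and 6 sets exceeded the limit of 0.625. Chance alone passes about 1 in 20 such sets. Hlf in PBS livers gave 0.636, since PBS replicate 5 had 17.0 CPM and the others 26.0 to 31.1 CPM. Bhlhe40 in ghrelin livers gave 0.687, with ghrelin replicate 6 at 89.7 CPM below the others at 104 to 111 CPM. Cry1 in ghrelin livers gave 0.7, with ghrelin replicate 1 at 12.9 CPM above the others at 5.08 to 7.41 CPM. Idh2 in PBS livers gave 0.759, with PBS replicate 1 at 91.7 CPM above 66.8 to 72.8 CPM. Pgd in ghrelin livers gave 0.677, with ghrelin replicate 4 at 23.8 CPM above 16.6 to 18.9 CPM. Cdc25b in ghrelin livers gave 0.732, with ghrelin replicate 2 at 0.377 CPM below 0.893 to 1.08 CPM.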

How the results depend on the processing

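The nocturnin fold change kept its sign in all 21 alternatives (log2 -1.25 to -1.01) and its call in 18. Members called numbered 1, but 0 in the robust test and 0 to 1 when single libraries were left out (0 without ghrelin replicate 1 or 3). Genes called numbered 15, against 204 by DESeq2, 63 without a filter, 9 in the robust test and 24 with the clock axis, and 0 to 32 with a library left out. Core clock genes called numbered 0, against 1 without a filter, 2 by DESeq2 and 0 to 1 with a library left out (1 without PBS replicate 6). Deadenylation genes called numbered 0, against 1 by DESeq2. Glucocorticoid-responsive genes called numbered 0, against 2 without a filter, 2 by DESeq2 and 0 to 1 with a library left out. The called correlations numbered 20 among members (13 to 22 with a library left out) and 40 with core clock genes (23 to 43), both lowest without ghrelin replicate 1. Tef (log2 -0.06) turned to 0.034 without ghrelin replicate 1, 0.008 without ghrelin replicate 2, 0.015 without PBS replicate 2, 0.016 without PBS replicate 4, and 0.03 with the clock axis, and its lowest value was -0.155 without PBS replicate 5. Dbp (0.13) turned to -0.005 without ghrelin replicate 4, -0.086 without ghrelin replicate 6 and -0.042 without PBS replicate 5, and its highest value was 0.317 without ghrelin replicate 1. The other members kept their signs with a library left out. Nocturnin and Usp2 apart, each moved by over 1.5 times from its value with all libraries. Hlf ran from -0.239 (without PBS replicate 5) to -0.086 (PBS replicate 3), and Nfil3 from 0.109 (ghrelin replicate 5) to 0.322 (ghrelin replicate 6). Ciart ran from -1.65 (ghrelin replicate 5) to -0.82 (PBS replicate 2), and Wee1 from -0.572 (ghrelin replicate 4) to -0.203 (ghrelin replicate 1). Bhlhe40 ran from 0.023 (PBS replicate 6) to 0.176 (PBS replicate 2), and Bhlhe41 from 0.195 (ghrelin replicate 4) to 0.566 (PBS replicate 2). Usp2 moved less, from -1.44 (PBS replicate 5) to -0.877 (PBS replicate 2). The cause of these changes was not tested.

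No label says that shared numbers mark pairs, so the numbers were not taken as pairs. Libraries with the same number correlated at -0.08 to 0.27. With the replicate block 58 genes were called, nocturnin had a log2 fold change of -1.17 (adjusted p = 0.0143), and 1 glucocorticoid-responsive gene, Tat, was called. Of 6 ghrelin libraries, 3 correlated best with the PBS library of their number. Whether the numbers mark pairs is not settled by these values. Npas2, Wee1, Ciart and Bhlhe41 are limited by depth, with as few as 4, 7, 9 and 18 counts in a library.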
